A study of Homo sapiens with 6 samples.

Results

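The genes described here are HAS2 and VCAN of the hyaluronan-versican matrix, the metalloproteinases ADAMTS1, ADAMTS5 and ADAMTS6, and the further proteases PLAU, MMP15 and FAP. They were chosen by gene symbol, and all 8 were found among the 937 genes of the deposited expression table. RNA was sequenced from LX-2, a human cell line derived from hepatic stellate cells, the liver cells that become matrix-producing myofibroblasts in fibrosis. In the ALB group, LX-2 cells received TGF-β1 (20 ng/mL) for 24 h, and albiflorin (ALB), a monoterpene glycoside of peony root, was then added for 24 h. In the TGF-β1 group, which the labels title as control, the cells received the same TGF-β1 and no ALB. The study's methods do not say whether these cells were kept for a further 24 h before harvest, so the groups may also differ in time. Each group had 3 libraries, all from this 1 cell line, and no cells left without TGF-β1 are part of the comparison. The ALB dose of the sequenced cells is not given in the sources used here. The study's methods speak of independent experiments in general without naming the sequencing libraries. Whether the 3 libraries of a group are from independent cultures is thus not clear, and the spread that the p-values are based on may therefore be technical.

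The table holds genes that the study had called as changed between the same 6 libraries, so each gene was in the table because it had already passed such a test. Library depth was estimated at 35800000 to 41600000 fragments in the ALB group and 33800000 to 38100000 in the TGF-β1 group, from the ratio of counts to FPKM (fragments scaled to transcript length and library depth). Of 15 marker genes of stellate cells and myofibroblasts, 4 were in the table, of which COL1A2, COL3A1 and TAGLN were lower with ALB and PDGFRA was higher. COL1A2 and PDGFRA were at low levels, with group means of at most 0.601 FPKM. The labels also give the cell type as hepatocyte. Of 12 hepatocyte markers, 8 leukocyte markers and 6 endothelial markers, the table held 0, 1 and 2. The leukocyte marker ITGAM was 2.72-fold higher with ALB, and the endothelial markers PECAM1 and TEK were 2.37-fold and 1.99-fold lower, all with group means of at most 1.74 FPKM. A marker outside the table may still be expressed, so the labelled cell type could be checked only in part, and the part of other cell types in the results was not tested.

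Hyaluronan is a long, unsulfated sugar chain that HAS enzymes spin out through the plasma membrane, and HAS2 is the main such enzyme of many mesenchymal cells. Versican, the product of VCAN, is a large chondroitin sulfate proteoglycan that binds hyaluronan and forms with it a loose, hydrated coat around the cell. Secreted ADAMTS metalloproteinases such as ADAMTS1 and ADAMTS5 cut versican, while urokinase (PLAU), membrane-type matrix metalloproteinases such as MMP15 and the serine protease FAP act on other matrix and surface substrates. This provisional matrix and its proteases are remodelled when stellate cells become activated.

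The catalytic sites of the proteases and the cleavage site of versican are shown here as coding sequence, because they define which members are zinc proteases, which are serine proteases and where the substrate is cut. They were read from GENCODE 29 transcripts (GRCh38), 5′ to 3′ on the coding strand. The first 4 lines are the catalytic zinc-binding sites, with the codons of the zinc-binding histidines in capitals.
ADAMTS1: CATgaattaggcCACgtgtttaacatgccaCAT
ADAMTS5: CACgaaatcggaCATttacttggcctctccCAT
ADAMTS6: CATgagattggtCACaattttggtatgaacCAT
MMP15: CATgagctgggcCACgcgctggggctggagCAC
The next lines show the stretch around the catalytic serine of the serine proteases, with the serine codon in capitals.
PLAU: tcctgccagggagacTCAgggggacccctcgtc
FAP: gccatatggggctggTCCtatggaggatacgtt
The last line is the stretch of VCAN that encodes the ADAMTS cleavage site, with the codons on both sides of the cut bond, for glutamate and alanine, in capitals.
VCAN: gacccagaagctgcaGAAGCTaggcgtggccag

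The zinc-binding sites of ADAMTS1, ADAMTS5 and ADAMTS6 each run across an exon boundary, at exons 3 and 4 of ADAMTS1, exons 2 and 3 of ADAMTS5 and exons 9 and 10 of ADAMTS6, whereas that of MMP15 lies within exon 5 (chr16:58040563-58040595). Over these 33 bases, ADAMTS1 shared 19 with ADAMTS5, 20 with ADAMTS6 and 19 with MMP15. The stretches of PLAU (exons 10 and 11) and FAP (exons 21 and 22) also cross exon boundaries. The cleavage site of VCAN lies in exon 8 of the longest coding transcript, which has 15 exons (chr5:83537270-83537302, plus strand).

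In GENCODE 29, VCAN spans chr5:83471465-83582303 on the plus strand and ADAMTS6 chr5:65148736-65481920 on the minus strand. ADAMTS1 (chr21:26835747-26845409) and ADAMTS5 (chr21:26917912-26966513) are neighbours on the minus strand of chromosome 21, with 72.5 kb and 0 annotated genes between them. PLAU is at chr10:73909177-73917497 (plus strand), MMP15 at chr16:58025566-58046901 (plus strand) and FAP at chr2:162170684-162245151 (minus strand). Exons of an annotated gene on the opposite strand overlap those of HAS2 (HAS2-AS1, 201 bases), VCAN (VCAN-AS1, 453 bases), PLAU (C10orf55, 916 bases) and FAP (AC007750.1, 638 bases). Whether counting used strand is not given in the sources used here, so reads of these partners cannot be told apart. ADAMTS1, ADAMTS5, ADAMTS6 and MMP15 have no overlapping exons of another gene.

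Most of these genes were lower with ALB, and MMP15 alone was higher. When counts were compared with edgeR (quasi-likelihood test, Benjamini-Hochberg adjustment over the 937 genes, threshold 0.05), 7 members fell and 1 rose. The same test called 99.4% of the table (56.9% as lower and 42.5% as higher), so passing it says nothing particular about the members. The median log2 fold change, ALB over TGF-β1, was -1.73 over the 8 members and -0.97 over the table. No gene of the table lay between -0.88 and 1.11, so such a median depends on the split into lower and higher genes. More than 4-fold lower levels were found for 3 members, HAS2, ADAMTS1 and VCAN, while 11.7% of the table was this much lower and 6.94%, without MMP15, this much higher. With TMM factors, which take most genes of the table as unchanged although all had been called as changed, 6 members passed as lower and 1 as higher, against 78.0% of the table (35.3% as lower and 42.7% as higher). TMM moved the table's median to -0.37 and that of the members to -1.13, and lower and higher calls numbered 331 and 400 in place of 533 and 398. With DESeq2's own size factors 5 members passed as lower and 1 as higher, against 72.4% of the table (29.7% as lower and 42.7% as higher). Under each of these scalings HAS2 and ADAMTS1 alone, 2 of the 8 genes, were more than 4-fold lower, as were 56 genes of the table with TMM and 47 with DESeq2's own size factors. All libraries are from 1 cell line, and in bulk RNA a lower share of expressing cells and less RNA per cell cannot be told apart.

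**Figure D1:**
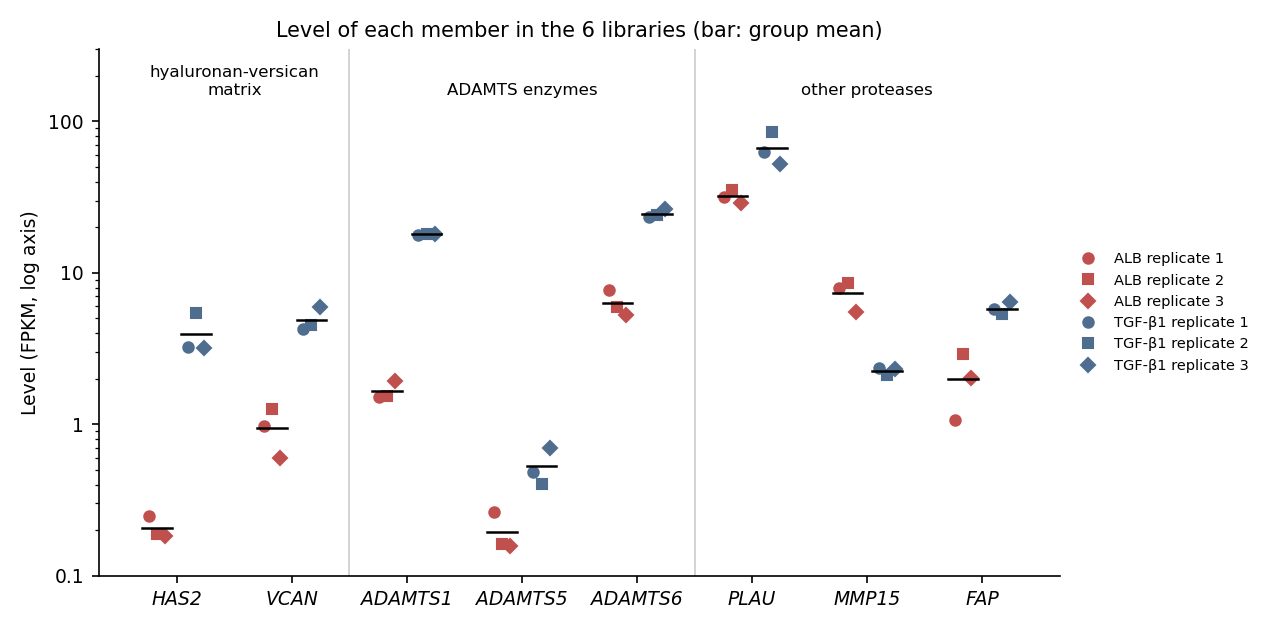
FPKM (log axis) of each member in the 3 ALB libraries (red, left) and the 3 TGF-β1 libraries (blue, right), with a bar at the group mean. The groups do not overlap for any member, nor do they for 95.5% of the genes of the table, so this is not particular to the members. Only MMP15 is higher with ALB, at 5.51 to 8.58 FPKM against 2.13 to 2.34 FPKM in the TGF-β1 libraries.

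HAS2, which makes the hyaluronan chain, had the lowest fold change of the 8 genes. Its level was 0.246, 0.189 and 0.184 FPKM in ALB replicates 1 to 3, against 3.24, 5.44 and 3.21 FPKM in TGF-β1 replicates 1 to 3. These values rest on 29 to 38 counts in the ALB libraries and 458 to 818 in the TGF-β1 libraries. All ALB libraries were far below all TGF-β1 libraries, and TGF-β1 replicate 2 was the highest of its group. The log2 fold change was -4.23 (standard error 0.30, adjusted p = 1.45e-05, edgeR), an 18.8-fold lower level, and HAS2 stood 5th by fold change among the 537 lower genes of the table. Without any 1 library the log2 fold change stayed between -4.38 and -3.94. On the log2(FPKM + 1) scale, which understates changes of low levels, it was -2.01 (limma). TMM factors gave -3.64 and DESeq2's own size factors -3.54 for HAS2.

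VCAN, the hyaluronan-binding proteoglycan, fell as well, by a smaller fold. It was at 0.974, 1.27 and 0.595 FPKM in the ALB libraries and at 4.26, 4.51 and 5.99 FPKM in the TGF-β1 libraries. The groups did not overlap, and the ALB libraries differed among themselves more than the TGF-β1 libraries did, with coefficients of variation of 35.6% and 19.0%. The log2 fold change was -2.28 (standard error 0.31, adjusted p = 0.00019, edgeR), which corresponds to a 4.85-fold lower level. For VCAN the value was -1.70 with TMM factors and -1.59 with DESeq2's own size factors, both less than 4-fold. Within a library, the ratio of VCAN to HAS2, which does not depend on library depth, was 3.97, 6.69 and 3.24 in the ALB group, against 1.31, 0.829 and 1.86 in the TGF-β1 group. The ratio was thus higher in every ALB library, by 3.48-fold between the geometric means. By an exact, two-sided permutation test of the log2 ratios p was 0.1, below which a design of 3 and 3 libraries cannot go, and 0.15 after adjustment over the 9 ratios computed.

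ADAMTS1, a secreted protease that cuts versican and other hyaluronan-binding proteoglycans, was the most even of the members in the TGF-β1 group. There it was at 17.7, 18.1 and 18.2 FPKM, a coefficient of variation of 1.6%, whereas the ALB libraries had 1.51, 1.53 and 1.94 FPKM. The counts were 279, 282 and 416 in the ALB group and 3472, 3324 and 3167 in the TGF-β1 group. No library of either group came near the other group, as the lowest TGF-β1 library was 9.12-fold above the highest ALB library. The log2 fold change was -3.44 (standard error 0.19, adjusted p = 4.26e-06, edgeR), the smallest p of the 8 genes. ADAMTS1 was at -2.82 with TMM factors and -2.72 with DESeq2's own size factors.

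ADAMTS6 was the most abundant of the 3 ADAMTS enzymes in every library. In mice this enzyme is needed for heart development. It was at 7.65, 5.92 and 5.28 FPKM with ALB, and at 23.4, 24.2 and 26.3 FPKM in the TGF-β1 libraries. The groups did not overlap, and ADAMTS6 was 3.82-fold lower with ALB (log2 -1.93 ± 0.19 standard error, adjusted p = 4.36e-05, edgeR). With DESeq2's own size factors the log2 value was -1.23.

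ADAMTS5, known as an aggrecan- and versican-cutting enzyme, was the lowest of the 3 ADAMTS enzymes. Its level was 0.263, 0.162 and 0.158 FPKM in the ALB libraries, against 0.487, 0.401 and 0.696 FPKM in the TGF-β1 libraries. The counts behind it were 56 to 91 with ALB and 137 to 226 without. The groups were close, since the lowest TGF-β1 library was 1.53-fold above the highest ALB library. ADAMTS5 passed edgeR's test at an adjusted p of 0.0023, with a log2 ratio of -1.44 (standard error 0.32). It no longer passed with DESeq2's own size factors (log2 fold change -0.73, adjusted p = 0.0511, DESeq2) and was -0.82 with TMM factors.

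The neighbouring genes ADAMTS1 and ADAMTS5 were 10.8-fold and 2.71-fold lower with ALB. The ratio of ADAMTS5 to ADAMTS1 within a library was 0.174, 0.106 and 0.0815 with ALB, against 0.0276, 0.0221 and 0.0382 without, 4.01-fold higher between the geometric means. The ratio of ADAMTS6 to ADAMTS1 was 5.08, 3.88 and 2.73 with ALB and 1.32, 1.34 and 1.44 without, 2.76-fold higher. Both ratios were higher in every ALB library than in every TGF-β1 library. Each was at the smallest possible p (0.1, exact permutation test, adjusted p = 0.15), which cannot pass the threshold.

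The ratios of ADAMTS enzymes to matrix genes, all of RNA levels, were less clear. ADAMTS1 relative to VCAN was 1.55, 1.21 and 3.25 in the ALB libraries and 4.15, 4.01 and 3.04 in the TGF-β1 libraries, and ALB replicate 3 lay within the range of the TGF-β1 group (exact permutation p = 0.2, adjusted p = 0.225). By the same permutation test p was 0.1 with 0.1 FPKM added, and 0.1 without ALB replicate 3. It was 0.2 in counts and 0.2 to 0.3 without any other 1 library. ADAMTS5 relative to VCAN was 0.27, 0.128 and 0.265 with ALB, against 0.114, 0.0889 and 0.116 without. In FPKM this ratio did not overlap between the groups but came close in ALB replicate 2 (exact permutation p = 0.1, adjusted p = 0.15). In counts the groups overlapped (exact permutation p = 0.2). For the summed FPKM of the 3 ADAMTS enzymes over that of HAS2 and VCAN, the ratio was 7.72, 5.23 and 9.47 with ALB and 5.54, 4.29 and 4.91 without (exact permutation p = 0.2, adjusted p = 0.225). The groups overlapped in this ratio, and the design could not have passed the threshold at any size of difference.

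PLAU encodes urokinase, which converts plasminogen to plasmin, and was the most abundant member in all 6 libraries. It was at 31.8, 35.4 and 28.8 FPKM in the ALB libraries, against 63.3, 85.0 and 52.6 FPKM in the TGF-β1 libraries. The groups did not overlap, but the TGF-β1 libraries spread widely, with replicate 2 the highest. PLAU had the smallest change of the 8 genes in size (edgeR's adjusted p = 0.00119, log2 fold change -1.07, standard error 0.21) and stood 402nd among the 537 lower genes. It did not pass under TMM factors from the table (log2 fold change -0.48, adjusted p = 0.0652, edgeR) or with DESeq2's own size factors (log2 fold change -0.37, adjusted p = 0.148, DESeq2).

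FAP, a surface serine protease known as a marker of activated fibroblasts, had the widest spread with ALB. The ALB libraries had 1.07, 2.89 and 2.03 FPKM, a coefficient of variation of 45.4%, whereas the TGF-β1 libraries had 5.76, 5.31 and 6.38 FPKM, with 9.23%. All ALB libraries were below all TGF-β1 libraries, and ALB replicate 1 was the lowest, at 97 counts against 268 and 224 in ALB replicates 2 and 3. The log2 fold change was -1.53 (standard error 0.33, adjusted p = 0.00184, edgeR) and was -1.22 without ALB replicate 1 (adjusted p = 0.00161, edgeR). TMM factors gave -0.93 and DESeq2's own size factors -0.82 for FAP. FAP relative to PLAU overlapped between the groups (0.0337, 0.0815 and 0.0705 with ALB, 0.0909, 0.0625 and 0.121 without, exact permutation p = 0.4, adjusted p = 0.4).

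MMP15, a membrane-anchored matrix metalloproteinase, was the member that rose. It was at 7.92, 8.58 and 5.51 FPKM in the ALB libraries and at 2.34, 2.13 and 2.32 FPKM in the TGF-β1 libraries. The groups were well apart, and ALB replicate 3 was the lowest of its group. The log2 fold change was 1.69 (standard error 0.21, adjusted p = 0.000116, edgeR), a 3.24-fold higher level, and MMP15 stood 107th among the 400 higher genes. The value was 2.28 with TMM factors and 2.39 with DESeq2's own size factors. Relative to PLAU, MMP15 was at 0.249, 0.242 and 0.191 with ALB, against 0.037, 0.025 and 0.0441 without, a 6.56-fold higher ratio (exact permutation p = 0.1, adjusted p = 0.15). Both genes had been selected as changed between these libraries, in opposite directions, so a difference in their ratio follows from that selection.

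For each of the 8 genes, the exact permutation test of log2(FPKM + 0.1) gave p = 0.1, the smallest p of this design. The FPKM of the groups did not overlap for 95.5% of the genes of the table, with ALB below in 54.9% and above in 40.7%.

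**Figure D2:**
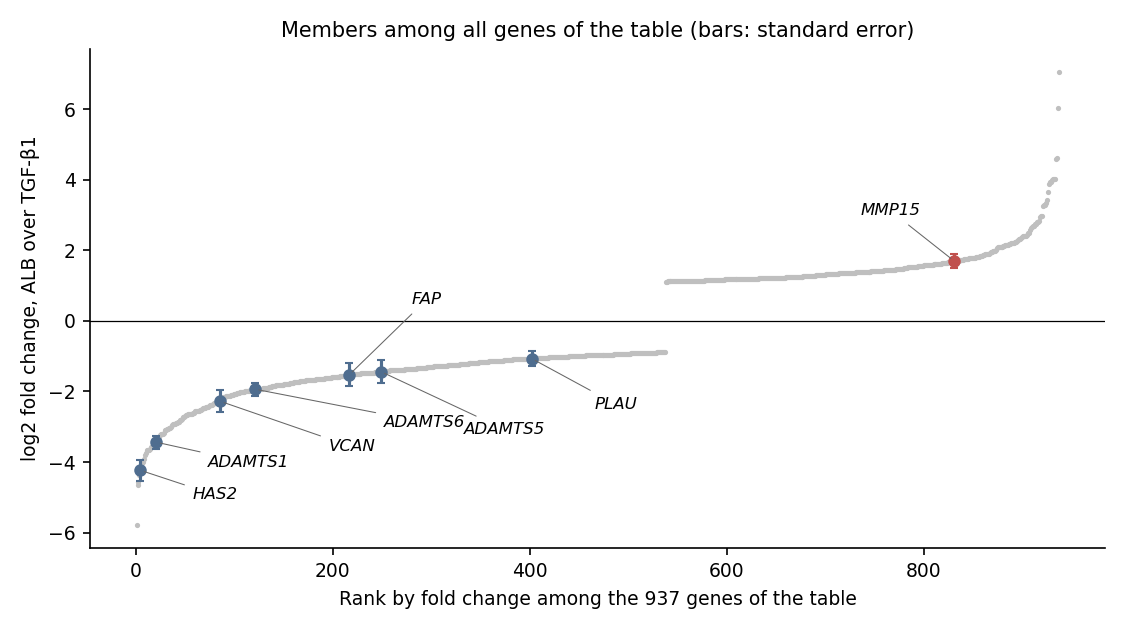
Log2 fold change (ALB over TGF-β1, edgeR) of all 937 genes of the table, ordered from lowest to highest (grey), with the 8 members marked and their standard errors as bars. HAS2 (-4.23) and ADAMTS1 (-3.44) lie near the lower end, PLAU (-1.07) lies near the least lowered genes, which reach -0.88, and MMP15 (1.69) is on the other side, where the table starts at 1.11.

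The order of the levels per length also differed between the groups. With ALB the order by mean FPKM was PLAU, MMP15, ADAMTS6, FAP, ADAMTS1, VCAN, HAS2 and ADAMTS5. Between neighbours in this order, the ranges over libraries overlapped for MMP15 and ADAMTS6, for FAP and ADAMTS1, and for HAS2 and ADAMTS5, although MMP15 was above ADAMTS6 in each of the 3 ALB libraries. Without ALB the order was PLAU, ADAMTS6, ADAMTS1, FAP, VCAN, HAS2, MMP15 and ADAMTS5, and the ranges of neighbours overlapped for FAP and VCAN and for VCAN and HAS2. Beyond neighbours, the ranges of FAP and VCAN overlapped with ALB, and those of FAP and HAS2 without. MMP15 was thus 2nd of 8 with ALB and 7th of 8 in the TGF-β1 libraries.

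Summed over the genes of a class, HAS2 and VCAN were at 1.15 ± 0.341 FPKM with ALB and 8.88 ± 1.26 FPKM without (mean ± SD, n = 3 libraries a group). The ADAMTS enzymes were at 8.14 ± 1.12 FPKM with ALB and 43.2 ± 1.84 FPKM without. PLAU, MMP15 and FAP were together at 41.4 ± 5.27 FPKM with ALB and 75.0 ± 15.9 FPKM without. The other proteases had the smallest fold between the groups (1.81-fold lower), and they made up 81.6% ± 2.25 of the FPKM of the 8 genes with ALB, against 58.7% ± 5.38 without. Their ratio to the ADAMTS enzymes was 4.33, 6.16 and 4.93 with ALB and 1.72, 2.16 and 1.36 without, 2.97-fold higher (exact permutation p = 0.1, adjusted p = 0.15). PLAU carried most of this sum, and MMP15 and FAP, which moved in opposite directions, added up to 9.34 ± 2.00 FPKM with ALB and 8.08 ± 0.63 FPKM without.

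**Figure D3:**
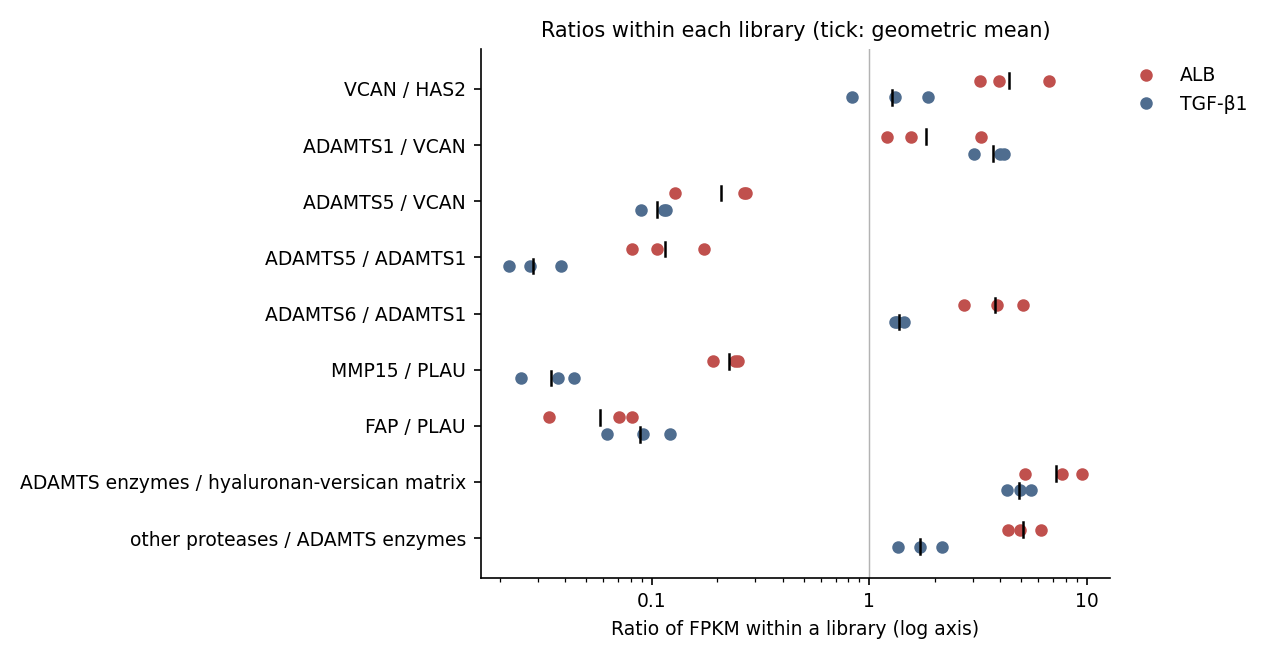
Ratio of FPKM within each library (log axis) for the 9 pairs of genes or gene classes, with ALB libraries in red above TGF-β1 libraries in blue and a tick at each geometric mean. The ratio of MMP15 to PLAU separates the groups most (0.191 to 0.249 against 0.025 to 0.0441), which follows from the selection of both genes as changed, in opposite directions. FAP to PLAU, ADAMTS1 to VCAN and the ADAMTS enzymes to the hyaluronan-versican matrix overlap.

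Of 146 genes of hyaluronan metabolism, hyaluronan-binding proteoglycans, matrix proteases and their inhibitors, 13 were in the table, and 10 were lower and 3 higher with ALB by edgeR's test, which called 56.9% of the table as lower and 42.5% as higher. Of these 13, 8 are the genes above. The other 5, of 138 listed, were 3 lower and 2 higher, with a median log2 fold change of -1.39, against -0.97 for the table. That median is the value of PRSS23 alone, which stood 267th among the 537 lower genes, so it does not show a stronger fall. Among 25 ADAMTS and ADAMTS-like genes the table held 4, and all 4 were lower. The fourth was ADAMTSL1, an ADAMTS-like protein without a protease domain, with 199, 123 and 169 counts in the ALB libraries and 760, 763 and 669 in the TGF-β1 libraries (log2 fold change -2.23, standard error 0.22). TLL1, a tolloid-type protease that processes matrix and growth factor precursors, had 111, 67 and 115 counts with ALB and 700, 577 and 790 without (log2 fold change -2.90, standard error 0.26).

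Serine proteases of the table went both ways. PRSS23, a secreted serine protease, was far more abundant than the 8 genes, at 92.9 ± 26.0 FPKM with ALB and 222 ± 25.5 FPKM without (n = 3 libraries a group, log2 fold change -1.39, standard error 0.19). HTRA3, another secreted serine protease, was at 8.47 ± 1.02 FPKM with ALB and 2.84 ± 0.512 FPKM without (log2 fold change 1.62, standard error 0.20). ITIH4, of the inter-alpha-trypsin inhibitor heavy chain family, had 87, 107 and 50 counts with ALB and 16, 14 and 17 without (log2 fold change 2.32, standard error 0.40). MMP15 was the only 1 of 23 matrix metalloproteinases in the table, and PLAU the only 1 of 7 genes of plasminogen activation. The table held 0 of 12 matrix protease inhibitors, 0 of 13 ADAM proteases and 0 of 15 cathepsins, and levels of such genes were not analysed here.

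The gene profiles most like each member were sought among the 549 genes that had a symbol and a mean of at least 1 FPKM. Likeness was the root mean square difference of log2(FPKM + 0.1) over the 6 libraries, after subtraction of each gene's own mean. MMP15 had the nearest partner, ARRDC3 (0.08), followed by SESN2 (0.14). VCAN was nearest to PLCB4 (0.114) and DSP (0.208), and ADAMTS6 to FOXD1 (0.115) and ANXA3 (0.133). PLAU was nearest to NFKBIZ (0.119) and PDCD1LG2 (0.125), ADAMTS5 to MICOS13 (0.134) and DLC1 (0.144), and FAP to ABI3 (0.136) and FN1 (0.19). HAS2 and ADAMTS1 had no partner as close, with KRT34 and ADAMTS1 both at 0.341 from HAS2, and TRPC4 (0.266) and SLC38A5 (0.271) nearest to ADAMTS1. Among the members, VCAN and ADAMTS6 (0.321) and HAS2 and ADAMTS1 (0.341) were the closest pairs, and HAS2 and MMP15 (2.683) the farthest. Each such profile includes the difference between the groups, for which every gene of the table had been selected. Adding 0.1 FPKM narrows that difference at low levels, to -1.08 for ADAMTS5 and -3.69 for HAS2 (log2), against -1.44 and -4.23 by edgeR. The nearest genes of these 2 members, and of others, may depend on this, and no other added value was tried for the profiles.

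Promoters of ADAMTS6, VCAN, PLAU and MMP15 were in the RefSeq promoter table used (GRCh38.p14), PLAU with 2 start sites. The 250 bases before the RefSeq start site of ADAMTS6, which fell, and of MMP15, which rose, are printed as examples of opposite direction. Matches to GGAATG (TEAD) and CAGAC (SMAD), searched on both strands, are in capitals.
ADAMTS6: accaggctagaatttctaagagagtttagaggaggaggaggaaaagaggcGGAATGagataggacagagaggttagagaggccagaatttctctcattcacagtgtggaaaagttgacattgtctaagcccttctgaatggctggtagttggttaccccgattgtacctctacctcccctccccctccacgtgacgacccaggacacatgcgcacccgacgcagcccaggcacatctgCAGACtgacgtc
MMP15: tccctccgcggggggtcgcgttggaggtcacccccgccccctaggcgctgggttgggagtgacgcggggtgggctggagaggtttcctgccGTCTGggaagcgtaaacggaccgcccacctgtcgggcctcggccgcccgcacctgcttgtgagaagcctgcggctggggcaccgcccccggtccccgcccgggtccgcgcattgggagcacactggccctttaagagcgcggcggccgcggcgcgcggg
The window of ADAMTS6 (chr5:65481921-65482170, minus strand) is 52.4% G and C, and that of MMP15 (chr16:58025504-58025753, plus strand) 74.8%. Relative to the GENCODE gene spans given above, the window of ADAMTS6 lies wholly before the gene. That of MMP15 runs past the GENCODE start at 58025566, and its capitalised match lies inside the gene. The windows of VCAN and PLAU lie wholly inside their genes. By that annotation the windows are therefore unlike regions, which limits their comparison. GGAATG was found in ADAMTS6 alone of these promoters, starting 200 bases before the start site, and occurs in 11.9% of all 35116 promoters. CAGAC was found in ADAMTS6, in MMP15 (as GTCTG, on the other strand) and before 1 of the PLAU starts, and occurs in 38.0% of all promoters. TGANTCA (AP-1), which is in 6.57% of all promoters, was not in these windows. The windows of VCAN and of the other PLAU start held none of the 3 motifs.

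**Figure D4:**
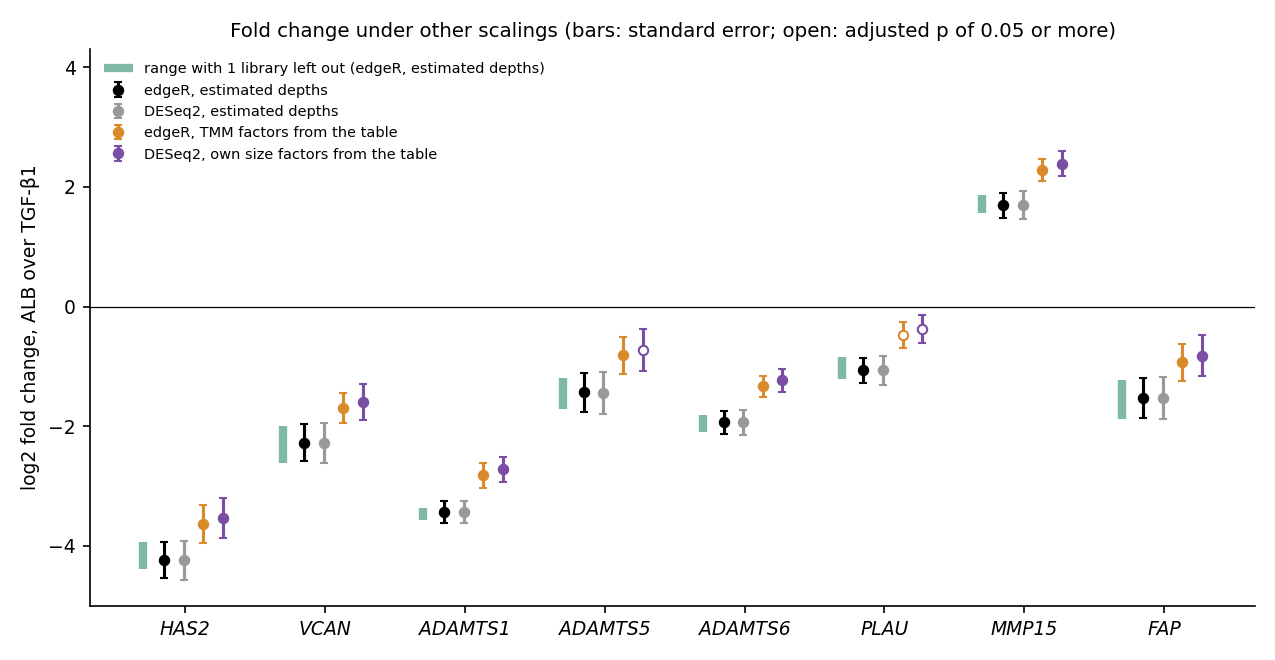
Log2 fold change of each member (ALB over TGF-β1) under 4 combinations of tool and scaling, with standard errors as bars, open symbols where the adjusted p is 0.05 or more, and a green bar for the range with 1 library left out. Scalings computed from the table's own genes move each value upwards. PLAU then has open symbols under both (-0.48 and -0.37), and ADAMTS5 under DESeq2's own size factors (-0.73). Every member keeps its direction, which was largely set by the selection of the table's genes, with none between -0.88 and 1.11.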

How the data were processed

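RNA-seq of LX-2 cells was analysed in 3 ALB and 3 TGF-β1 libraries. The authors deposited counts (whole numbers) and FPKM for the 937 genes of their final list, which the methods describe as selected with DESeq2 (fold difference above 2, P below 0.01). CASAVA 1.4 and mouse builds are named in the submitters' processing notes, whereas the row names are human. Aligner, counter and human build: not given in the sources used here. Columns were assigned to samples by the agent's initial and the replicate number, and for the TGF-β1 group, titled CON, which column is which library rests on the number alone.

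A table of selected genes does not sum to the library depth. Relative depth was therefore taken from count/FPKM ratios (median over the 565 genes that reached 50 counts in all libraries), and 41 genes with 1 annotated transcript in GENCODE 29 set the scale. Counts were tested with edgeR's quasi-likelihood test (edgeR 4.0.16, R 4.3.3) on all 937 genes at these depths, with no filter. Each standard error is the size of the log2 fold change divided by the square root of its F statistic. edgeR's biological coefficient of variation was 0.302 in the ALB group and 0.206 in the TGF-β1 group. Ratios of FPKM within a library were compared by exact permutation over libraries (Python 3.11.15), adjusted over 9 ratios. Intervals of single counts cover counting error only and are not printed.

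The members and gene lists were chosen with earlier results of these data known. Named genes are the 8 members, each list gene in the table and the 2 genes nearest in profile to each member. Alternatives were TMM factors, DESeq2 1.42.0, a minimum mean of 1 FPKM, limma 3.58.1 on log2(FPKM + 1) and log2(FPKM + 0.1), the replicate number as a block and each library left out. A shift of the ALB depths was added after the data were seen.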

Additional observations from a re-analysis of the deposited data

How the results depend on the processing

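All 8 members kept their direction under each alternative tried. Every gene of the table had been selected as changed, with none between -0.88 and 1.11. Kept direction was thus largely set by that selection and says little about the members. Calls were lost for PLAU with TMM factors (log2 fold change -0.48), and for PLAU (-0.37) and ADAMTS5 (-0.73) with the size factors DESeq2 computes itself. Over the table, lower calls numbered 331 with TMM and 278 with DESeq2's size factors, because these scalings assume most genes unchanged, and higher calls numbered 241 with a minimum mean of 1 FPKM, which removes genes. Genes more than 4-fold lower numbered 110, against 56 with TMM, 47 with DESeq2's size factors and 31 with limma on log2(FPKM + 1), each with 2 members in place of 3. With 1 library left out, lower calls ranged from 512 to 518 and higher calls from 388 to 397, and every member passed each time. Shifting the ALB depths by 0.11 (log2), chosen after seeing that the table's fold changes start at -0.88 and 1.11, gave -4.35 for HAS2 and 1.58 for MMP15 and changed no member's call. With this shift ADAMTS6 (-2.05) was also more than 4-fold lower, making 4 members and 134 genes of the table. Leaving out ALB replicate 1 likewise gave 4 members, with ADAMTS6 at -2.09, and 116 genes. Limma on log2(FPKM + 1) gave -0.35 for ADAMTS5, whose level was below 1 FPKM in all 6 libraries. Libraries of equal replicate number had correlations of their deviations from group means of 0.07, 0.00 and -0.09, within the -0.12 to 0.12 of unequal numbers. No pairing was thus seen, but 3 libraries a group and columns matched by number alone cannot exclude it. With the replicate block, 925 genes of the table passed in place of 931 (532 lower and 393 higher) and all 8 members did, VCAN with -2.34. With the block, the exact test of the ratio of VCAN to HAS2 (log2 difference 1.80) gave p = 0.25, the smallest p that 3 pairs allow, and no ratio changed direction. Depth limits HAS2 and ADAMTS5 most, with 29 to 38 and 56 to 91 counts in the ALB libraries.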

Other observations

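The ratio of count to FPKM, divided by the estimated depth, gives the transcript length behind each FPKM value. For the 8 members this length differed little between the groups, by at most 0.074 on the log2 scale (VCAN). VCAN stood at 9618, 10271 and 8973 bases in the ALB libraries and 9483, 8952 and 8945 bases in the TGF-β1 libraries, while its 12 annotated transcripts range from 498 to 12625 bases. ADAMTS1 was at 5159 to 5167 bases with ALB and 5152 to 5155 bases without.

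For some other matrix genes of the table the implied length did differ, so that counts and FPKM give different fold changes. ADAMTSL1 was at 3824, 4808 and 5236 bases in the ALB libraries and 6721, 6622 and 6402 bases in the TGF-β1 libraries, and was 4.68-fold lower by counts (edgeR) but 3.16-fold lower by mean FPKM. ITIH4 was at 2555, 2305 and 1943 bases with ALB and 1336, 1439 and 1746 bases without, and was 4.99-fold higher by counts but 3.27-fold higher by mean FPKM. TLL1 was at 7278, 4492 and 5020 bases with ALB and 6534, 6693 and 6652 bases without, with ALB replicate 1 above the TGF-β1 group and the other ALB libraries below it. A group difference over 0.1 (log2) was found in 106 of the 565 genes with enough counts. ITIH4 is not 1 of these 565, as it had only 16, 14 and 17 counts in the TGF-β1 libraries. Whether transcript usage differs in these genes was not tested, since the table gives no values per transcript.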
